A study of Sus scrofa with 6 samples.

Results

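The small heat shock proteins and their partner BAG3 were examined as a group of 8 genes, taken by symbol from the expression table: CRYAB, HSPB1, HSPB2, HSPB3, HSPB6, HSPB7, HSPB8 and BAG3. The table held 7 of the 8 among its 13288 genes, and HSPB2 was not listed. The libraries came from ventricular muscle of Tibetan minipigs, all male by the study's methods. In 3 minipigs the descending aorta was constricted (DAC), and 3 sham minipigs had the chest opened without constriction. Tissue was collected at week 12 after surgery, 1 library for each minipig, and by the study's account DAC produced a failing heart whose ejection fraction was preserved. Sham minipigs carry the replicate numbers 1 to 3 and DAC minipigs 4 to 6. Values are the authors' FPKM, which are fragments scaled by transcript length and by the mapped fragments of the library, so levels of different genes can be set side by side.

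Small heat shock proteins are chaperones that work without ATP. They share an alpha-crystallin domain, assemble into oligomers and hold unfolding proteins until other chaperones refold them or hand them on for degradation. In cardiomyocytes they sit on desmin filaments, on titin and at the Z-disc. BAG3 joins HSPB8 to HSP70 and directs damaged client proteins to autophagy, and inherited defects of BAG3 and of CRYAB are known causes of cardiomyopathy.

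No member of the group passed the test between DAC and sham myocardium. CRYAB and BAG3 had nearly equal means in the groups, and the means of HSPB1 and HSPB6 were lower in the DAC group. Converted to ratios, their differences in mean log2(FPKM + 1) were falls of 17.3% and 19.6%. The comparison used limma's moderated test on log2 of FPKM plus a pseudocount of 1, fitted to the 11029 genes that reached 1 FPKM in 3 or more samples, and all 7 listed members were among them. A gene was called at an unadjusted P under 0.05, a threshold that follows the methods of the study. By this rule 0 of the 7 members were called, whereas 939 of all genes tested were called, or 8.51%, with 3.25% higher and 5.27% lower in the DAC group. At 8.51%, less than 1 call among 7 genes would match the table as a whole. The groups did not overlap for 1 of the 7 members, HSPB1, and for 14.9% of all genes tested, with DAC higher for 6.01% and lower for 8.91%. The median log2 fold change was -0.077 over the members and -0.016 over all genes tested, and 4 members had a lower and 3 a higher mean in the DAC group. No gene of the table reached an adjusted P under 0.05 by limma with Benjamini-Hochberg adjustment, the smallest being 0.106.

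**Figure D1:**
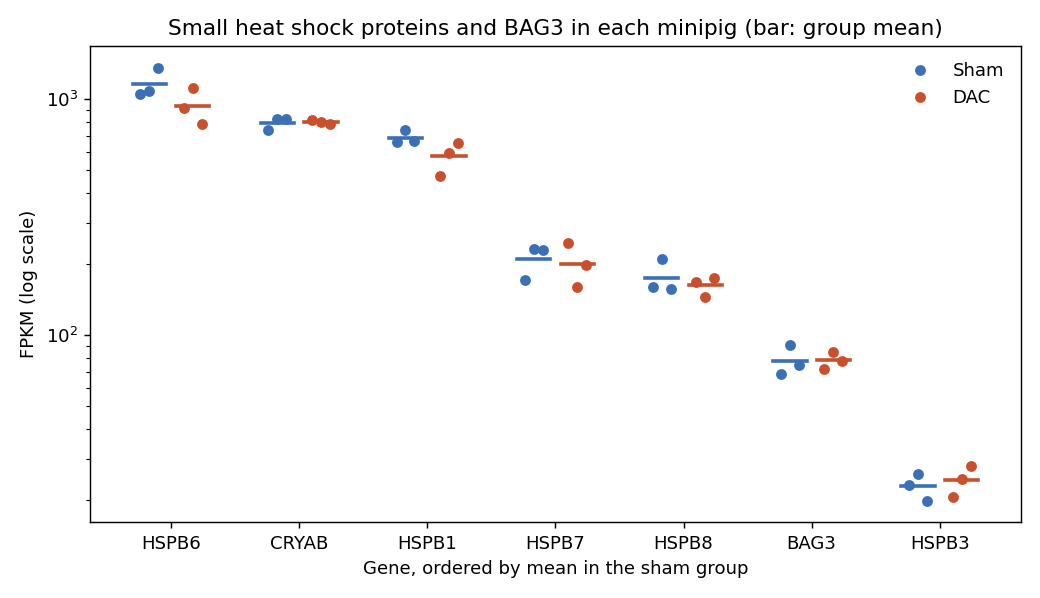
FPKM on a log axis for the 7 listed members in each of the 3 sham (blue) and 3 DAC (red) minipigs, with a bar at each group mean. HSPB6, CRYAB and HSPB1 lie highest, and only for HSPB1 do all DAC points, from 473 to 653 FPKM, lie under all sham points.

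The members differed widely in abundance, and by group means their order was the same in sham and DAC hearts. HSPB6, CRYAB and HSPB1 ranked 23, 29 and 39 by mean FPKM among the 13288 genes, and together they made up from 81.3% to 85.8% of the members' total in each sample. HSPB7 and HSPB8 ranked 132 and 161. BAG3 ranked 411 and HSPB3 ranked 1587. HSPB6 exceeded CRYAB in 5 of 6 samples, and in DAC replicate 6 its level was 0.995 times that of CRYAB. Within the DAC group the ranges of HSPB6 and CRYAB overlapped, and within the sham group those of CRYAB and HSPB1 did, although CRYAB exceeded HSPB1 in 6 of 6 samples. HSPB7 exceeded HSPB8 in 6 of 6 samples, by between 1.08 and 1.45 times, while their ranges overlapped within each group. The steps from HSPB1 to HSPB7, from HSPB8 to BAG3 and from BAG3 to HSPB3 were wider than the spread within either group.

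CRYAB (ENSSSCG00000036724, chromosome 9 from 39638502 to 39643530 on susScr11, minus strand) encodes alpha-B-crystallin, which guards desmin and titin. It was at 741, 822 and 827 FPKM in sham replicates 1, 2 and 3, and at 816, 797 and 787 FPKM in DAC replicates 4, 5 and 6. All DAC values lay within the sham range. Sham minipigs averaged 797 ± 48.4 FPKM (SD, n = 3) and DAC minipigs 800.0 ± 15.0 FPKM (SD, n = 3). On the log2 scale CRYAB differed by 0.0079 with a standard error of 0.097, and limma gave an adjusted P of 0.986. Its 95% interval runs from a ratio of 0.858 to one of 1.18. CRYAB also varied less than the other members, with a coefficient of variation of 6.08% in the sham and 1.88% in the DAC group.

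HSPB1 (ENSSSCG00000039962, chromosome 3 from 10037936 to 10039915, minus strand) is the widely expressed small heat shock protein that also guards actin filaments. It was at 659, 742 and 662 FPKM in the sham samples and at 473, 591 and 653 FPKM in the DAC samples. The groups did not overlap, but the gap between the lowest sham and the highest DAC sample was narrow, and DAC replicate 4 stood lowest. The means were 688 ± 46.6 FPKM (SD, n = 3) and 573 ± 91.2 FPKM (SD, n = 3), with a log2 fold change of -0.27 (standard error 0.14, 95% interval -0.61 to 0.059, adjusted P = 0.629 from limma). The unadjusted P of HSPB1 from limma was 0.0929, and the exact two-sided permutation P was 0.10, the smallest that 3 against 3 can give. Without DAC replicate 6, HSPB1 had an unadjusted P of 0.0426 from limma and a log2 fold change of -0.38. Without DAC replicate 4 the log2 fold change was -0.14, and after quantile normalization it was -0.16, and HSPB1 was called in neither.

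HSPB6 (ENSSSCG00000023498, chromosome 6 from 45181443 to 45183998, minus strand) is a target of protein kinase A in heart and smooth muscle. It was at 1048, 1084 and 1361 FPKM in the sham samples and at 921, 1116 and 782 FPKM in the DAC samples. DAC replicate 5 lay above 2 of the 3 sham samples, so the groups overlapped. The means were 1164 ± 171 FPKM (SD, n = 3) and 940 ± 168 FPKM (SD, n = 3). The log2 fold change of -0.31 had a 95% interval from -0.71 to 0.080 (unadjusted P = 0.102, adjusted P = 0.640 from limma), and the exact permutation P was 0.30. Without DAC replicate 5 the log2 fold change was -0.45 with an unadjusted P of 0.0252 from limma. It was -0.19 without DAC replicate 6 and -0.20 without sham replicate 3, and HSPB6 was then not called. HSPB6 was also called after quantile normalization (log2 fold change -0.41, unadjusted P = 0.0135 from limma). HSPB1 and HSPB6 were both called when each sample was scaled to the same summed FPKM (unadjusted P = 0.0429 and unadjusted P = 0.0488 from limma). This scaling takes in the 13 mitochondrially encoded genes, whose share of all FPKM was 24.0% to 25.3% in sham minipigs, 27.1% to 27.2% in DAC replicates 4 and 6 and 32.8% in DAC replicate 5. Across all these settings the adjusted P from limma was between 0.533 and 0.903 for HSPB1 and between 0.551 and 0.896 for HSPB6.

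HSPB7 (ENSSSCG00000041935, chromosome 6 from 75166990 to 75174893, minus strand) is the cardiovascular member of the family. It was at 172, 232 and 229 FPKM in the sham samples and at 245, 160 and 198 FPKM in the DAC samples. The highest and the lowest value were both from DAC minipigs, and the log2 fold change was -0.077 (95% interval -0.52 to 0.37). The table gives HSPB7 the type lncRNA, whereas RefSeq annotates HSPB7 at an overlapping position of the same assembly as protein-coding.

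HSPB8 and BAG3 form the complex that starts chaperone-assisted selective autophagy of filamin and other strained proteins. HSPB8 (ENSSSCG00000009844, chromosome 14 from 33626128 to 33640792, minus strand) was at 160, 210 and 157 FPKM in the sham samples and at 169, 145 and 175 FPKM in the DAC samples. BAG3 (ENSSSCG00000010686, chromosome 14 from 129510293 to 129533996, plus strand) was at 68.8, 91.1 and 74.8 FPKM in the sham samples and at 72.3, 85.2 and 78.0 FPKM in the DAC samples. In sham hearts replicate 2 was the highest for both genes, and every DAC value of BAG3 lay within its sham range. The log2 fold change was -0.098 for HSPB8 (95% interval -0.44 to 0.25) and 0.011 for BAG3 (95% interval -0.31 to 0.33). For BAG3 this interval spans ratios from 0.809 to 1.26.

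A ratio between members of the same library does not depend on how the library is scaled. The ratio of BAG3 to HSPB8 was 0.431, 0.434 and 0.475 in the sham samples and 0.428, 0.586 and 0.445 in the DAC samples. Only DAC replicate 5 stood apart, and the mean log2 ratio was -1.16 ± 0.079 (SD, n = 3) in the sham and -1.05 ± 0.25 (SD, n = 3) in the DAC group (exact permutation P = 0.70). The ratio of HSPB1 to CRYAB was 0.890, 0.902 and 0.801 in the sham samples and 0.580, 0.742 and 0.830 in the DAC samples. It was lowest in DAC replicates 4 and 5, while DAC replicate 6 lay within the sham range. The mean log2 ratio of HSPB1 to CRYAB differed by -0.28 between the DAC and the sham group, with an exact two-sided permutation P of 0.20, or 0.40 after Benjamini-Hochberg adjustment over the 2 ratios.

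HSPB3 (ENSSSCG00000036059, chromosome 16 from 33716626 to 33719018, plus strand) is a muscle member that pairs with HSPB2. It was at 23.2, 25.9 and 20.0 FPKM in the sham samples and at 20.8, 24.7 and 28.0 FPKM in the DAC samples, with a log2 fold change of 0.082 (95% interval -0.27 to 0.43). The groups overlapped. HSPB2 itself is a neighbour of CRYAB, and RefSeq places it on chromosome 9 from 39640117 to 39644104 of Sscrofa11.1, where 3414 of its 3988 bases fall inside the CRYAB interval of the table. How fragments from that stretch were assigned is not given in the sources used here. CRYAB also lies inside the interval of C11orf1 on the plus strand, which was at 6.58 to 15.6 FPKM. Unnamed plus-strand genes overlap HSPB1 and HSPB7, with at most 3.75 and 1.34 FPKM.

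**Figure D2:**
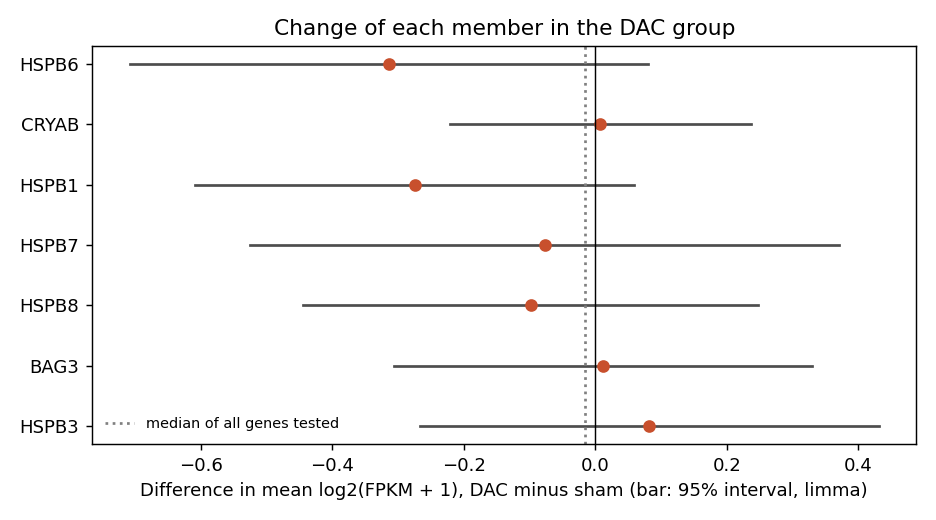
Difference in mean log2(FPKM + 1), DAC minus sham, for each member (red point) with its 95% interval from limma, 3 minipigs a group; the dotted line is the median of all genes tested, -0.016. All 7 intervals cross 0, and those of HSPB1 and HSPB6 lie mostly below it.

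The members did not move as a block from minipig to minipig. Sham replicate 2 was above the mean of the gene over the 6 samples for 7 of 7 members and was the highest sample for 3 of them. Each of the other samples was above that mean for between 2 and 4 members. HSPB6 was highest in sham replicate 3, HSPB7 in DAC replicate 4 and HSPB3 in DAC replicate 6. The samples of lowest HSPB1, HSPB6 and HSPB7 were DAC replicates 4, 6 and 5 in turn. Over the 7 members the median coefficient of variation was 14.7% in the sham and 14.7% in the DAC group, beside 12.2% and 14.7% over all genes tested.

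**Figure D3:**
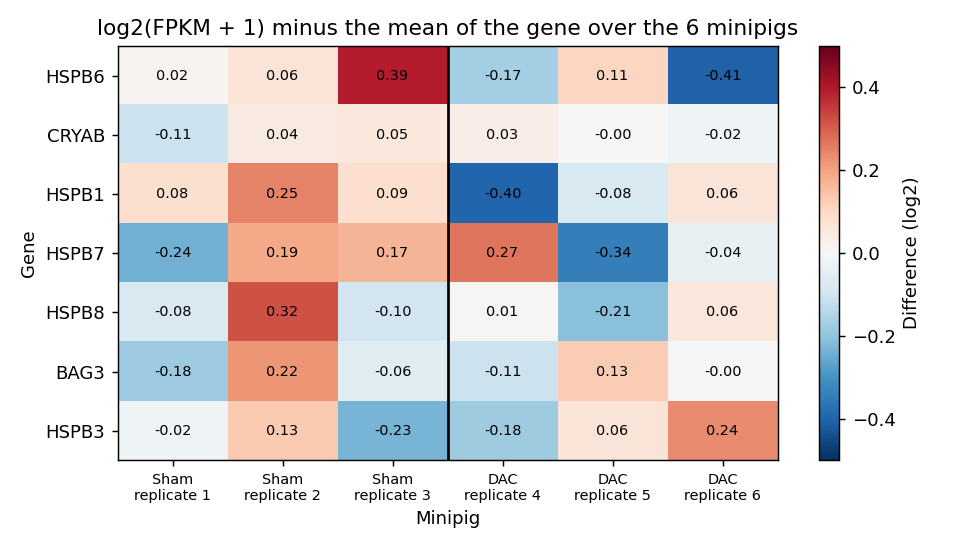
Colour and printed value give log2(FPKM + 1) minus the mean of the gene over the 6 minipigs, with a row for each member and a column for each minipig. Sham replicate 2 is above 0 in every row, while the DAC columns mix values above and below 0.

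The summed FPKM of the 7 members was 2871, 3207 and 3331 in the sham samples and 2717, 2920 and 2701 in the DAC samples, with overlap of the groups. As a share of the FPKM of nuclear genes it was 1.34%, 1.49% and 1.54% in the sham and 1.32%, 1.41% and 1.27% in the DAC samples, again with overlap. As a share of all FPKM, mitochondrially encoded genes included, it was from 1.02% to 1.15% in the sham and from 0.926% to 0.964% in the DAC samples, without overlap. Within the sum, CRYAB held 24.8% to 25.8% in the sham and 27.3% to 30.0% in the DAC samples, also without overlap. The FPKM of CRYAB itself averaged 797 in the sham and 800 in the DAC group, and the cause of its larger share was not tested. For FPKM itself, the groups did not overlap for 14.9% of all genes tested. The shares of all other members overlapped between the groups. The share of HSPB1 was 19.9% to 23.1% in the sham and 17.4% to 24.2% in the DAC samples.

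Likeness of pattern was measured as the root mean square difference between genes over the 6 samples, on log2(FPKM + 1) centred on the mean of each gene. The members were not each other's nearest genes: the nearest fellow member ranked between 518 and 2216 among the other genes tested. For BAG3 the nearest were CCDC149, AFTPH and STING1 (0.041, 0.044 and 0.047), and CRYAB was the nearest member (0.12). The root mean square deviation of BAG3 from its own mean was 0.14, so the distance to CRYAB was little smaller. For HSPB1 they were UQCRQ, RAB3D and GPAT4 (0.043, 0.046 and 0.056). For CRYAB, whose own root mean square deviation was 0.054, they were CCAR1, BLOC1S1 and CACUL1 (0.017, 0.022 and 0.024). For HSPB6 they were FRAT2, ELAC2 and SNED1, for HSPB7 HSD17B1, IL17B and PPP3R1, for HSPB8 ACSL3, TEAD2 and AP1AR, and for HSPB3 RASA1, ARID1B and UST. With 6 samples and 11029 genes, some close match exists for most patterns.

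Of 62 genes in the lists of partners, heat shock factors, other chaperones and client proteins, 51 were in the table and 49 were tested. By the limma test 5 of the 49 were called, or 10.2%, beside 8.51% of all genes tested, with 1 higher and 4 lower in the DAC group. Their median log2 fold change was -0.030, and none had an adjusted P under 0.05. The other members of the alpha-crystallin family on the list, with HSPB11, were not found by symbol. The table gave no symbol for 2440 genes, and 520 of these received one by gene identifier, so absence is by symbol only.

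Among the 9 partners of BAG3 and HSPB8 in selective autophagy, 1 was called. SQSTM1 (ENSSSCG00000014016), the p62 receptor that hands ubiquitinated cargo to the autophagosome, was at 199.8, 183 and 179 FPKM in the sham samples and at 149, 153 and 154 FPKM in the DAC samples. Every DAC sample lay below every sham sample. SQSTM1 differed by -0.29 on the log2 scale, with a standard error of 0.096 (unadjusted P = 0.0175, adjusted P = 0.522 from limma). Limma did not call it without sham replicate 1 (log2 fold change -0.25, unadjusted P = 0.0754) or after quantile normalization (log2 fold change -0.19). DNAJB6, a J-domain chaperone of the Z-disc, averaged 17.9 ± 0.838 FPKM in sham and 15.2 ± 0.869 FPKM in DAC minipigs (SD, n = 3 each) without overlap. DNAJB6 was not called, with an unadjusted P of 0.0582 from limma. It was called with samples scaled to the same summed FPKM (unadjusted P = 0.0448 from limma). It was also called with the variance taken gene by gene (unadjusted P = 0.0184 from the unmoderated test).

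The remaining parts of that machinery were not called. HSPA8, the constitutive HSP70 that BAG3 binds, averaged 78.6 ± 3.69 FPKM in sham and 75.5 ± 12.9 FPKM in DAC minipigs (SD, n = 3 each), and DAC replicate 4 was lowest at 60.8 FPKM. STUB1, the ubiquitin ligase of the complex, was at 67.5 ± 4.36 and 65.9 ± 8.80 FPKM (SD, n = 3 each). SYNPO2, which links BAG3 to autophagosome formation, had a log2 fold change of 0.19 (95% interval -0.16 to 0.54). For MAP1LC3B, VPS16, VPS18 and STX7, which serve autophagosomes and their fusion with lysosomes, the log2 fold changes were -0.036, -0.042, -0.19 and 0.074.

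Of the heat shock factors and their binding protein, 4 were listed and 0 were called. HSF1, the main activator of the heat shock response, was at 18.1, 16.1 and 15.0 FPKM in the sham samples and at 12.7, 16.4 and 13.1 FPKM in the DAC samples. The groups overlapped, and the log2 fold change was -0.21 (95% interval -0.53 to 0.099). HSF1 had an unadjusted P of 0.0377 from limma without DAC replicate 5, HSF2 one of 0.0378 without sham replicate 2, and HSF4 one of 0.0137 without sham replicate 3. In other alternatives the unadjusted P from limma reached 0.371 for HSF1, 0.271 for HSF2 and 0.735 for HSF4. With all 6 samples the log2 fold change was 0.23 for HSF2, -0.33 for HSF4 and 0.058 for HSBP1, a small protein that binds HSF1. The log2 fold change of HSF4 moved with single sham samples, being -0.66 when replicate 3 was left out and -0.099 when replicate 2 was. Leaving out single samples moved HSF1 between -0.32 and -0.15 and HSF2 between 0.17 and 0.32.

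In the list of cytosolic HSP70, HSP110 and J-domain chaperones, 12 genes were in the table, and 2 of the 10 tested were called. HSPA1A, HSPA1B, HSPA2 and HSPA4L were not found by symbol, so they could not be compared. DNAJB4 was at 33.0, 33.1 and 30.9 FPKM in the sham samples and at 38.8, 41.7 and 36.8 FPKM in the DAC samples. Its groups did not overlap, and the log2 fold change was 0.26 (unadjusted P = 0.0312, adjusted P = 0.563 from limma). DNAJB2 was lower in the DAC group, at 3.77 ± 0.571 against 2.89 ± 0.0557 FPKM (SD, n = 3 each), with an unadjusted P of 0.0448 from limma. DNAJB4 was not called without sham replicate 1, 2 or 3 or without DAC replicate 5, nor with samples scaled to the same summed FPKM (P from 0.0565 to 0.101). DNAJB2 was not called without any single sample other than sham replicate 2, nor after median or quantile scaling, without mitochondrially encoded genes or scaled to the cardiomyocyte markers (P from 0.0506 to 0.154). HSPA4, an HSP110 relative, had a log2 fold change of 0.17 and was not called.

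Of 12 tested genes for HSP90, its co-chaperones and the mitochondrial HSP60 and HSP10, 1 was called. FKBP5, a co-chaperone of HSP90 in steroid receptor complexes, was at 26.9, 31.0 and 31.5 FPKM in the sham samples and at 14.1, 18.4 and 9.85 FPKM in the DAC samples. The groups lay well apart, and the log2 fold change of FKBP5 was -1.07 (standard error 0.21, unadjusted P = 0.00131, adjusted P = 0.379 from limma). FKBP5 kept an unadjusted P under 0.05 in every alternative tried, with a log2 fold change between -1.26 and -0.85. UNC45B, the myosin chaperone, and HSPD1, the mitochondrial HSP60, had log2 fold changes of -0.16 and 0.12 and were not called. In the BAG family, 0 of 5 genes were called. BAG2 and BAG4 had log2 fold changes of 0.26 each and BAG6 of -0.11, and the values of BAG2 and BAG4 moved with single samples. The log2 fold change of BAG2 was 0.46 without DAC replicate 5 (unadjusted P = 0.0262 from limma) but 0.056 without DAC replicate 4. BAG4 stood at 0.42 when sham replicate 1 was left out and at 0.021 when replicate 2 was, and was called in neither.

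Among 9 tested client and anchor proteins, 1 was called. SYNM and TTN, also on that list, were not found by symbol and could not be compared. PLEC (ENSSSCG00000039094), plectin, which ties desmin to the Z-disc, was at 87.8, 81.4 and 90.5 FPKM in the sham samples and at 67.3, 56.4 and 66.9 FPKM in the DAC samples. No DAC sample reached the lowest sham sample. Its log2 fold change was -0.44 (standard error 0.11, unadjusted P = 0.00532, adjusted P = 0.482 from limma), and PLEC kept an unadjusted P under 0.05 in every alternative tried. LDB3, a Z-disc adaptor, was at 251 ± 27.8 FPKM (SD, n = 3) and 212 ± 10.1 FPKM (SD, n = 3), and CAPZA2, a subunit of the actin-capping protein that BAG3 keeps in place, had a log2 fold change of 0.26; neither was called. LDB3 had an unadjusted P of 0.0320 from limma without sham replicate 2, and CAPZA2 one of 0.0346 without DAC replicate 5. With single samples left out, the log2 fold change ran from -0.33 to -0.17 for LDB3 and from 0.17 to 0.36 for CAPZA2.

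**Figure D4:**
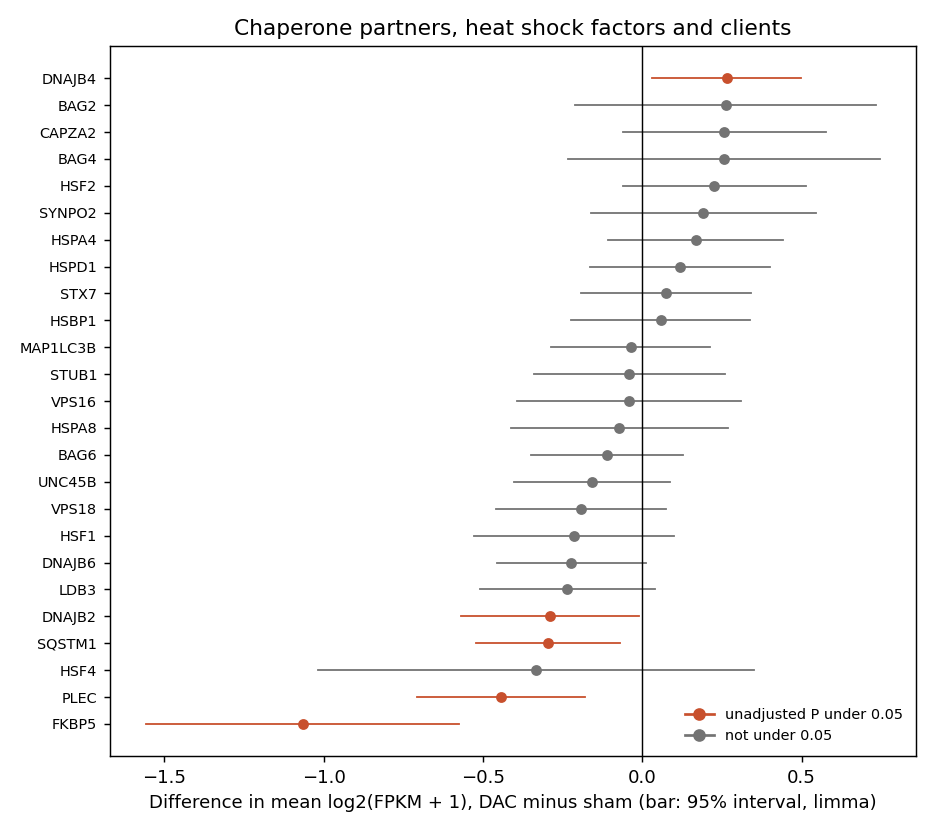
Difference in mean log2(FPKM + 1), DAC minus sham, with 95% intervals from limma for the 25 named partners, heat shock factors and clients, 3 minipigs a group; red marks an unadjusted P under 0.05. FKBP5, PLEC, SQSTM1 and DNAJB2 lie below 0 and DNAJB4 above it among the red genes.

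The tissue label was checked against markers. The 10 listed cardiomyocyte markers summed to between 17009 and 17888 FPKM in the sham and between 16224 and 19281 FPKM in the DAC samples. Of the 10, 1 was called, RYR2, which was lower in the DAC group. The fibroblast markers summed to between 479 and 553 FPKM in the sham and between 683 and 776 FPKM in the DAC samples, and 4 of 7 were called higher. Smooth muscle markers, whose cells also express HSPB1, HSPB6 and CRYAB, summed to 345 to 444 FPKM in the sham and 310 to 491 FPKM in the DAC samples, with 1 of 7 called higher and 1 lower. Endothelial markers summed to 142 to 197 and 122 to 183 FPKM, with 1 of 8 called higher and 2 lower, and leukocyte markers to 46.6 to 50.5 and 38.7 to 55.5 FPKM, with 1 of 7 tested called lower. Red blood cell markers were at most 39.3 FPKM in sum and adipocyte markers at most 1.34 FPKM, and of 7 skeletal muscle markers only TNNT1 was listed, at 6.94 to 19.4 FPKM in the sham and 19.2 to 50.6 FPKM in the DAC samples and called higher. Their part in the values of the members was not tested, and in bulk tissue fewer cells of a type and less RNA per cell cannot be told apart. Scaled to the cardiomyocyte markers, an alternative chosen after seeing the data, the log2 fold change was -0.24 for HSPB1, -0.28 for HSPB6, 0.040 for CRYAB and 0.043 for BAG3, and none of the 7 members was called.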

How the data were processed

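RNA-seq of ventricular tissue was made by the authors with a NEBNext Ultra kit and paired-end Illumina sequencing, 1 library for each of 3 sham and 3 DAC minipigs. The submitters' processing notes name HISAT2 and the build susScr11, and the program that made the values is not given in the sources used here. The authors deposited FPKM per gene, and no listed gene peaks below 0.500 FPKM. Depth is unknown: no steps of whole reads were seen, since at most 12 of at least 4272 low genes compared shared a ratio between samples. Sums of FPKM were 281377 to 308771 per sample. Precision was judged only from the spread between minipigs, which are separate animals by the study's account and not by the labels. Symbols came from the table, and 520 missing symbols were added by gene identifier. RefSeq positions are those of Sscrofa11.1.

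Values were analysed as log2(FPKM + 1) with limma 3.58.1 in R 4.3.3 (moderated test, trend of variance over mean, two-sided), and figures were drawn with Python 3.11.15 and matplotlib 3.10.9. The steps were tested on simulated data. Intervals cover 95%. Exact permutation tests used the 6 samples, and 3 against 3 cannot give a two-sided P under 0.10. The named genes are the members, all partners in selective autophagy, all heat shock factors, the 3 genes of each partner list with the smallest P, and for each member the 3 genes nearest in pattern. The members and lists were chosen with earlier results of these data known. The settings varied were the filter (none, or 5 FPKM), the scaling (median, quantile, summed FPKM, or summed FPKM without mitochondrially encoded genes), the pseudocount (0.1), the variance (gene by gene), weights for the samples, the omission of single samples, and scaling to cardiomyocyte markers, added after seeing the data.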

Additional observations from a re-analysis of the deposited data

How the results depend on the processing

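No paired analysis was possible because the sham and DAC samples share no replicate numbers. The log2 fold changes of HSPB1 and HSPB6 kept their direction in all alternatives, and those of the other members were small enough to change sign. With each sample scaled to the same summed FPKM, the log2 fold change was -0.032 for CRYAB, -0.028 for BAG3, -0.31 for HSPB1 and -0.35 for HSPB6, 2 members were called lower, 233 of all genes were called higher and 737 lower, and 0 partner genes were called higher. After quantile normalization it was 0.015 for HSPB7, 0.013 for HSPB8, -0.41 for HSPB6, -0.16 for HSPB1, 0.015 for MAP1LC3B and 0.0032 for STUB1, with 1 member and 2 partner genes called lower. Without mitochondrially encoded genes, MAP1LC3B was at 0.0051 and STUB1 at 0.0023, and 502 genes were called higher and 408 lower, against 358 and 581 in the unscaled values. A minimum of 5 FPKM gave 165 genes called higher. The cause of these shifts was not tested. No alternative called a member higher.

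With 1 sample left out in turn, the log2 fold change was between -0.044 and 0.035 for CRYAB, -0.38 and -0.14 for HSPB1, -0.015 and 0.19 for HSPB3, -0.45 and -0.19 for HSPB6, -0.23 and 0.075 for HSPB7, -0.17 and 0.036 for HSPB8, and -0.076 and 0.13 for BAG3. The median of the members was then between -0.16 and 0.032, the highest without sham replicate 2, and the difference in the log2 ratio of BAG3 to HSPB8 between -0.031 and 0.20, the lowest without DAC replicate 5. Between 0 and 1 members were called lower, between 0 and 3 partner genes higher and between 2 and 5 lower. Of all genes, between 240 and 464 were called higher and between 352 and 668 lower, with 352 lower without sham replicate 1 and 385 without sham replicate 3. For HSBP1 the range was -0.023 to 0.14, for HSPA8 -0.17 to 0.074, for MAP1LC3B -0.075 to 0.019, for STUB1 -0.13 to 0.059 and for VPS16 -0.13 to 0.11. Each group has 3 minipigs, and depth is unknown. The 95% intervals span ratios from 0.656 to 1.04 for HSPB1 and from 0.612 to 1.06 for HSPB6. These reach much further down than up. Those of the other members leave room for changes in either direction. Among these, the interval of CRYAB is the narrowest, from 0.858 to 1.18, and that of HSPB7 the widest, from 0.695 to 1.29.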
